A study of Mus musculus with 24 samples.

Results

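Voltage-gated sodium and calcium channels are represented here by 28 genes, of 19938 genes measured in mouse hippocampus on 24 Affymetrix arrays. They were chosen by symbol: the pore-forming sodium alpha subunits, the sodium beta subunits, the calcium alpha1 subunits, the alpha2delta subunits and the calcium beta subunits. Of 32 such genes in the reference list, 28 had a probe (a transcript cluster of the array) annotated with that symbol alone: 8 sodium alpha, 3 sodium beta, 10 calcium alpha1, 4 alpha2delta and 3 calcium beta genes. The other 4 were not analysed here. The symbol rule itself uses no measured value, though it was set with earlier results of these data known.

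Male mice of a mixed C57BL/6J-129sv background, aged 8 to 9 weeks, were either wild type (WT) or FoxO6 -/-, which the labels also name FoxO6 null and which is called mutant below. FoxO6 is a transcription factor of the forkhead family. The labels give no cell type to which the null allele is limited. Basal mice had been housed alone for 3 days or more. Learning mice were handled daily and spent 10 min in an empty arena 24 h before the task. They had 60 min of acclimatization, explored a pair of identical unfamiliar objects in the arena for 10 min, and were killed 60 min later. Each of the 4 combinations of genotype and state had 6 arrays. The labels speak of biological replicates without saying whether each array was a separate animal, so a p-value measures only the spread between these arrays.

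Both channel families open when the membrane depolarises. Sodium alpha subunits carry the rising phase of the action potential, and their beta subunits are single-pass membrane proteins that adjust gating and surface expression. Calcium alpha1 subunits form the pores of the L, P/Q, N, R and T types of calcium current. In hippocampal neurons P/Q-type and N-type channels trigger transmitter release, L-type channels signal to the nucleus, and T-type channels open near rest, while alpha2delta and beta subunits carry the pores to the membrane.

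Levels are given as log2 values of the deposited table, made with the RMA method. They can be compared between arrays for 1 gene but not between genes, since each probe has its own brightness. Array medians lay between 6.16 and 6.30 and pairs of arrays within a group correlated across genes at 0.991 to 0.997. The Foxo6 probe, which checks the genotype labels, read 6.18 to 6.59 in mutant basal and 6.78 to 7.30 in WT basal arrays, and 5.98 to 6.38 against 6.62 to 7.04 after learning (differences −0.73 and −0.63, adjusted p = 0.000128 and 0.000833). Whether that probe lies in the altered part of Foxo6 is not stated in the labels. The neuron markers Rbfox3, Snap25 and Syt1 had a mean log2 level of 11.56 to 11.76 over all arrays, the dentate granule cell list 8.09 to 8.63, the CA1 list 8.93 to 9.36 and the CA3 and CA2 list 7.97 to 8.42.

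After learning 16 of them had changed in WT and 17 in the mutant, beside 43.3% and 41.3% of all genes, and 16 were the same genes moving the same way. The 12 genes that fell in both genotypes were Cacna1a, Cacna1b, Cacna1c, Cacna1d, Cacna1e, Cacna1g, Cacna1h, Cacna1i, Cacna2d2, Cacnb1, Scn2b and Scn8a. The 4 that rose in both were Scn2a, Scn3a, Cacna2d3 and Cacnb4, and Scn9a rose in the mutant. In whole tissue, fewer cells of a type and less RNA per cell cannot be told apart. Between genotypes 0 of 28 were called at basal, after learning or on average, beside 0.1%, 0.0752% and 0.391% of all genes, so a list of this size would seldom hold a call.

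The start regions of 3 of these genes are shown because they lie upstream of genes that moved in opposite directions: Scn2b and Cacna1i fell in both genotypes and Scn2a rose in both. Each line holds the 250 bases before the most upstream start that RefSeq lists (mouse GRCm38.p6, plus strand, 5′ to 3′). They lie at chr9:45117626-45117875 for Scn2b, chr15:80286988-80287237 for Cacna1i and chr2:65620519-65620768 for Scn2a. Capitals mark the only match to a searched motif, the shorter cAMP response element motif read on the other strand.
Scn2b: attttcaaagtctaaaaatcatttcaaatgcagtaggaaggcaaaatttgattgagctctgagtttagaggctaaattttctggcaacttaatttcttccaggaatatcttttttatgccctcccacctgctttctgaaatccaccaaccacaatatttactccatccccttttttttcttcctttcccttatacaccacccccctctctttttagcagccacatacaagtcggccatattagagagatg
Cacna1i: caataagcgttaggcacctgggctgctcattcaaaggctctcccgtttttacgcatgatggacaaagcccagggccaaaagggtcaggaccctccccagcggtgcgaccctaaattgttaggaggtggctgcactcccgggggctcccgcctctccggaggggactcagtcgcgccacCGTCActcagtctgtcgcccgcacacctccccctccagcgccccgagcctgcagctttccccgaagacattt
Scn2a: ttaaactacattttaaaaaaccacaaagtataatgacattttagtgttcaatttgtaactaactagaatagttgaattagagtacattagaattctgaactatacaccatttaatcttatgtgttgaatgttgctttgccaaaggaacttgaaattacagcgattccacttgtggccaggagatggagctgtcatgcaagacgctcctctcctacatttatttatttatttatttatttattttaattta

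The Scn2a stretch was the poorest of the 3 in G and C, at 29.6%, against 38.4% for Scn2b and 62.4% for Cacna1i. RefSeq lists an upstream stretch for 22 of the 28 genes, and 11 were used, those whose listed start lay within 50 bases of the outer end of the annotated gene. Their median GC content was 48.0%, from 29.6% in Scn2a to 72.0% in Cacna1b, against a median of 55.2% in 11157 measured genes. The searched motifs were counted on both strands in these 11 and in 21982 promoters of the same length. The cAMP response element TGACGTCA was in 0 of 11 (1.57% of all promoters), and the shorter form TGACG, which the full element contains, was in Cacna1b and Cacna1i (18.2% against 17.0%). The GC box GGGCGG was in Cacna1b, Cacna1f, Cacna1s and Scn7a (36.4% against 29.4%). The TATA box TATAAA was in Cacna1d (9.09% against 14.2%). The AP-1 site TGACTCA, the E-box CACGTG and the FoxO site GTAAACA were in 0 of 11 (4.66%, 5.83% and 3.23% of all promoters). These matches describe letters in this window and say nothing of a factor.

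**Figure D1:**
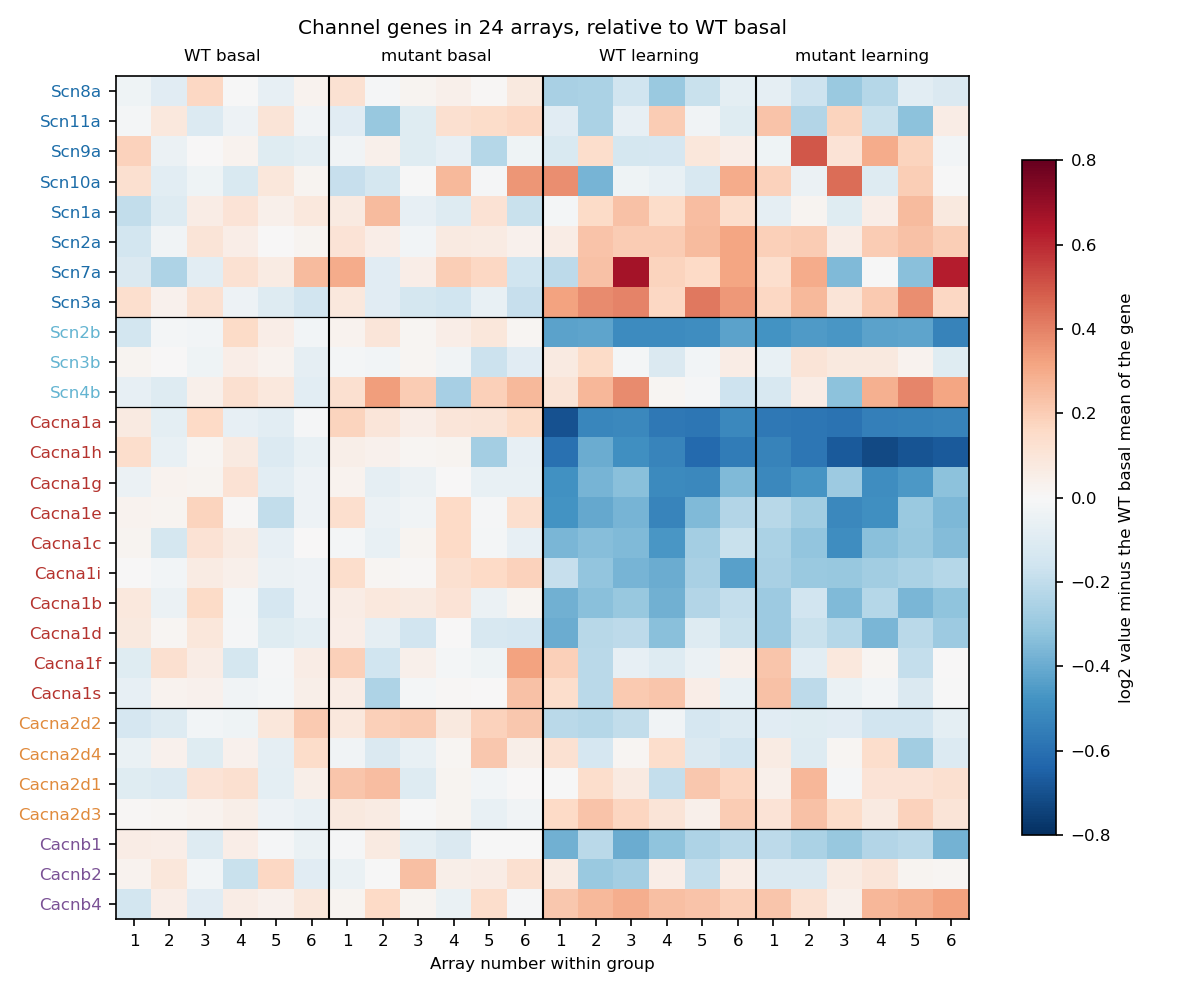
Each row is a channel gene and each column an array; colour is the log2 value minus the WT basal mean of that gene, from blue (lower) to red (higher). Rows are grouped by subunit family, and the blue block in both learning groups holds Scn2b, Cacnb1 and the alpha1 genes other than Cacna1f and Cacna1s.

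Calcium alpha1 subunits made up most of what fell. In WT, 8 of 10 were called lower and 0 higher, and the same 8 were called lower in the mutant. Their differences ran from −0.57 to −0.24 in WT and from −0.67 to −0.19 in the mutant. In each of the 8 genes, every learning array lay below every basal array of the same genotype. Over all genes 18.2% were called lower and 25.1% higher in WT, and 18.7% lower and 22.6% higher in the mutant. Groups lay apart with learning lower in 11.4% of all genes in WT and 11.8% in the mutant.

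Cacna1a, the pore of the P/Q-type channel that drives release at many central synapses, had the largest change of the 28. It read 9.22, 9.26 and 9.46 (lowest, median and highest log2 level) in WT basal arrays and 8.60, 8.75 and 8.79 in WT learning arrays. In the mutant it read 9.35, 9.40 and 9.48 at basal and 8.71, 8.74 and 8.77 after learning. All learning arrays lay well below all basal arrays of the same genotype. The signal fell by 32.5% in WT (−0.57, SE 0.0426, 95% interval −0.65 to −0.48, adjusted p = 6.05e-12). It fell by 37.4% in the mutant (−0.67, −0.76 to −0.59, adjusted p = 1.63e-13).

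Cacna1b, the N-type pore, is the other main channel of transmitter release. Its lowest, median and highest levels were 9.07, 9.18 and 9.35 in WT basal and 8.82, 8.88 and 9.01 in WT learning arrays. Mutant arrays read 9.16, 9.27 and 9.31 at basal and 8.84, 8.90 and 9.05 after learning. Groups lay apart in both genotypes, by a small gap in WT. The differences were −0.31 (SE 0.0485, adjusted p = 5.32e-06) and −0.34 (adjusted p = 1.19e-06).

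Cacna1e, the R-type pore, read 9.88, 10.09 and 10.26 in WT basal and 9.55, 9.69 and 9.85 in WT learning arrays. In the mutant the levels were 10.03, 10.14 and 10.24 at basal and 9.56, 9.75 and 9.85 after learning. The spread within groups was wider than for Cacna1a, and the groups still did not overlap. Cacna1e fell by 23.9% in WT (−0.39, SE 0.0584, adjusted p = 1.82e-06). In the mutant it fell by 25.2% (−0.42, adjusted p = 6.97e-07).

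The T-type pores Cacna1g, Cacna1h and Cacna1i all fell. Cacna1h read 8.23, 8.32 and 8.48 in WT basal and 7.72, 7.79 and 7.94 in WT learning arrays, and 8.07, 8.36 and 8.39 against 7.61, 7.67 and 7.81 in the mutant. It was the second largest change, −0.53 in WT (SE 0.0566, adjusted p = 5.64e-09) and −0.61 in the mutant (adjusted p = 4.19e-10). Cacna1g read 7.83, 7.90 and 8.03 against 7.39, 7.48 and 7.58 in WT, and 7.84, 7.86 and 7.94 against 7.40, 7.45 and 7.62 in the mutant. Its signal fell by 25.7% in WT (−0.43, adjusted p = 5.05e-08), and the mutant difference was −0.39 (adjusted p = 2.37e-07). Cacna1i read 7.91, 7.95 and 8.02 against 7.52, 7.61 and 7.77 in WT, and 7.97, 8.09 and 8.14 against 7.65, 7.69 and 7.73 in the mutant. Mutant learning arrays were the tightest group of this gene, with an SD of 0.028. Cacna1i differed by −0.33 (adjusted p = 1.45e-06) and −0.38 (adjusted p = 1.18e-07).

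Of the L-type pores, the brain forms Cacna1c and Cacna1d fell. Cacna1c read 8.36, 8.51 and 8.62 in WT basal and 8.03, 8.15 and 8.32 in WT learning arrays, and 8.43, 8.48 and 8.66 against 8.00, 8.17 and 8.25 in the mutant. The differences were −0.33 (adjusted p = 8.15e-06) and −0.35 (adjusted p = 3.52e-06). Cacna1d changed least among the 8, from 7.60, 7.70 and 7.79 to 7.30, 7.48 and 7.59 in WT and from 7.55, 7.60 and 7.75 to 7.33, 7.44 and 7.52 in the mutant. In both genotypes the highest learning array lay just under the lowest basal array. Its differences were −0.24 (adjusted p = 0.000675) and −0.19 (adjusted p = 0.00626). The retinal form Cacna1f and the skeletal muscle form Cacna1s were not called, with levels of 4.79 to 5.33 and 5.40 to 5.89 over all arrays. Cacna1f differed by −0.03 in WT (95% interval −0.20 to 0.13) and −0.05 in the mutant (−0.21 to 0.12), and Cacna1s by 0.06 (−0.11 to 0.22) and −0.03 (−0.20 to 0.13).

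**Figure D2:**
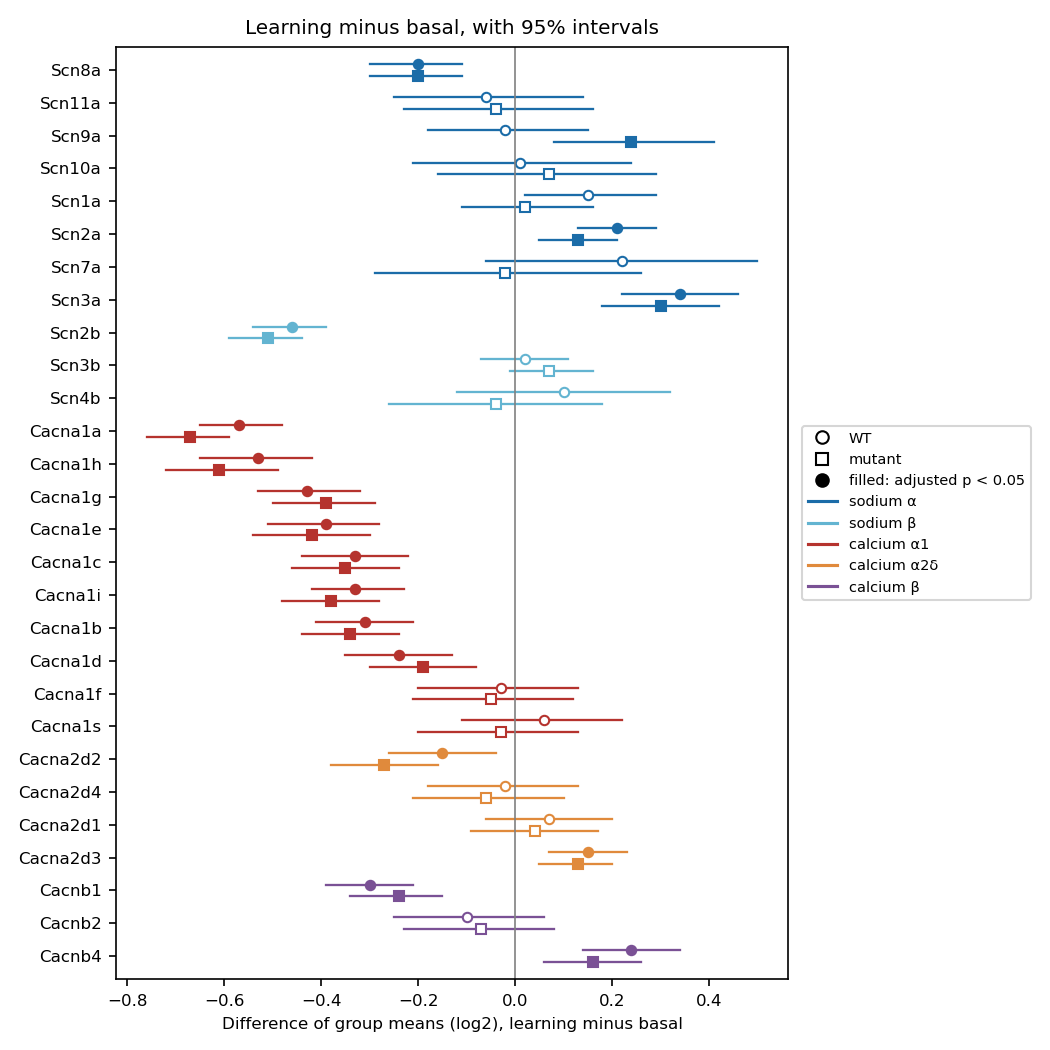
Points are learning minus basal differences of group means in log2 units for WT (circles) and mutant (squares), bars are 95% intervals and filled symbols are called at an adjusted p under 0.05. The 8 filled alpha1 genes lie between −0.67 and −0.19, while sodium alpha genes lie on both sides of 0.

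The auxiliary calcium subunits did not share 1 direction. Cacnb1, a cytosolic beta subunit first known from muscle, fell from 8.73, 8.85 and 8.88 to 8.43, 8.54 and 8.61 in WT and from 8.71, 8.82 and 8.90 to 8.45, 8.58 and 8.62 in the mutant. No learning array reached a basal array of its genotype (−0.30, adjusted p = 2.73e-06, and −0.24, adjusted p = 5.07e-05). Cacnb4, the beta subunit disrupted in lethargic mice, rose from 9.56, 9.75 and 9.80 to 9.90, 9.94 and 10.00 in WT with no overlap. In the mutant it read 9.65, 9.73 and 9.86 at basal and 9.75, 9.95 and 10.03 after learning, and the groups overlapped. The differences were 0.24 (adjusted p = 0.000152) and 0.16 (adjusted p = 0.00663). Cacnb2 differed by −0.10 in WT (−0.25 to 0.06) and −0.07 in the mutant (−0.23 to 0.08) and was not called.

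Among alpha2delta subunits, extracellular proteins that raise the number of channels at the surface, 1 rose, 1 fell and 2 were not called. Cacna2d3 read 9.67, 9.74 and 9.77 in WT basal and 9.77, 9.89 and 9.96 in WT learning arrays, and 9.67, 9.74 and 9.80 against 9.80, 9.85 and 9.96 in the mutant. The groups met at their edges in both genotypes (0.15, adjusted p = 0.00131, and 0.13, adjusted p = 0.00636). Cacna2d2, a gabapentin-binding form, read 7.44, 7.55 and 7.79 in WT basal and 7.35, 7.41 and 7.55 in WT learning arrays, which overlapped. Mutant arrays read 7.66, 7.76 and 7.79 against 7.43, 7.48 and 7.50, which did not overlap. The mutant call (−0.27, adjusted p = 0.000174) held with each array left out. The WT call (−0.15, adjusted p = 0.0246) ended, with adjusted p up to 0.0891, when 1 array was left out, if that was WT learning array 1, 2 or 3, or array 5 or 6 of WT basal. Cacna2d1, also a gabapentin-binding form, differed by 0.07 (−0.06 to 0.20) in WT and 0.04 (−0.09 to 0.17) in the mutant, and its second probe was not called either. Cacna2d4, known from photoreceptors, differed by −0.02 (−0.18 to 0.13) and −0.06 (−0.21 to 0.10).

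Sodium alpha subunits were mixed: 2 rose and 1 fell in WT, and 3 rose and 1 fell in the mutant, of 8. In WT that is 25% higher and 12.5% lower, near the 25.1% and 18.2% of all genes, and in the mutant 37.5% and 12.5%, beside 22.6% and 18.7%. Scn3a, the form that prevails before birth, read 7.92, 8.07 and 8.20 in WT basal and 8.23, 8.43 and 8.49 in WT learning arrays. Mutant levels were 7.88, 7.95 and 8.15 at basal and 8.17, 8.26 and 8.44 after learning. Learning arrays lay above basal arrays in both genotypes, by a narrow gap. Scn3a differed by 0.34 in WT (SE 0.0587, 95% interval 0.22 to 0.46, adjusted p = 2.16e-05) while the mutant difference was 0.30 (0.18 to 0.42, adjusted p = 8.94e-05). Groups lay apart with learning higher in 13.8% of all genes in WT and 10.9% in the mutant. Among the channel genes this held for Scn3a and Cacnb4 in WT and for Scn3a in the mutant.

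Scn2a, the neighbour of Scn3a on chromosome 2 with 0 protein-coding genes between them, encodes a main sodium channel of excitatory neurons. It read 11.33, 11.49 and 11.58 in WT basal and 11.53, 11.69 and 11.79 in WT learning arrays, and 11.46, 11.54 and 11.59 against 11.54, 11.68 and 11.71 in the mutant. The groups overlapped in both genotypes through 1 low learning array each. Scn2a differed by 0.21 (adjusted p = 5.78e-05) and 0.13 (adjusted p = 0.00824). The array holds 14 probes of Scn2a, of which 6 were called higher in WT and 4 in the mutant and 0 lower, with differences of 0.04 to 0.64 and −0.05 to 0.68.

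Scn8a, the alpha subunit of mature axon initial segments and nodes of Ranvier, was the one that fell. It read 9.79, 9.86 and 10.04 in WT basal and 9.58, 9.66 and 9.80 in WT learning arrays, with 1 array overlapping. Mutant levels were 9.87, 9.91 and 10.00 against 9.58, 9.74 and 9.81, with no overlap. The difference was −0.20 in both (adjusted p = 0.000483 and 0.000503).

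Scn1a, whose loss in mice causes seizures and whose channel is prominent in fast-spiking interneurons, was not called. It read 9.26, 9.51 and 9.57 in WT basal and 9.45, 9.61 and 9.71 in WT learning arrays, which overlapped (0.15, 0.02 to 0.29, adjusted p = 0.0668). It became called higher in WT in some alternatives, with adjusted p from 0.026 to 0.0499. In the mutant it read 9.28, 9.46 and 9.71 against 9.36, 9.50 and 9.71 (0.02, −0.11 to 0.16). Of the forms typical of sensory neurons, Scn10a differed by 0.01 and 0.07 and Scn11a by −0.06 and −0.04, with intervals from −0.25 to 0.29. Scn7a, an atypical form that senses sodium, differed by 0.22 (−0.06 to 0.50) and −0.02 (−0.29 to 0.26) and had the widest spread within groups of the 28, an SD of 0.268. Mean levels over all arrays were 5.37 in Scn10a, 5.18 in Scn11a and 5.67 in Scn7a, below the array medians of 6.16 to 6.30. At such levels an uncalled difference does not show stable expression. The same limit holds for Cacna1f (mean 5.01), Cacna1s (5.66), Cacnb2 (6.23) and Cacna2d4 (6.16), within or below the range of the array medians.

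Scn9a, also known from sensory neurons, was dim throughout. It read 5.16, 5.34 and 5.43 in mutant basal and 5.36, 5.53 and 5.89 in mutant learning arrays, which overlapped, a difference of 0.24 (adjusted p = 0.0172). In WT it read 5.30, 5.37 and 5.58 against 5.25, 5.36 and 5.53, a difference of −0.02. Its second probe read differently, with 0.14 in WT and 0.01 in the mutant, and was not called. The mutant call ended with the mean of both probes (0.12, adjusted p = 0.109), and without mutant learning array 2 (adjusted p = 0.0676) or mutant basal array 5 (adjusted p = 0.0502).

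The sodium beta subunits parted as well. Scn2b, which is bound to the alpha subunit by a disulphide bridge, read 10.85, 10.98 and 11.15 in WT basal and 10.50, 10.54 and 10.58 in WT learning arrays. In the mutant it read 11.01, 11.04 and 11.10 against 10.46, 10.54 and 10.58. The groups were far apart in both genotypes. Scn2b fell by 27.4% in WT (−0.46, SE 0.0365, adjusted p = 1.55e-11), and the mutant signal fell by 29.9% (−0.51, adjusted p = 1.88e-12). Scn4b, the adjacent gene to Scn2b and its closest relative, was not called, with levels of 6.56 to 7.29 over all arrays and differences of 0.10 (−0.12 to 0.32) and −0.04 (−0.26 to 0.18). Scn3b, which binds the alpha subunit without a covalent bond, differed by 0.02 (−0.07 to 0.11) and 0.07 (−0.01 to 0.16).

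**Figure D3:**
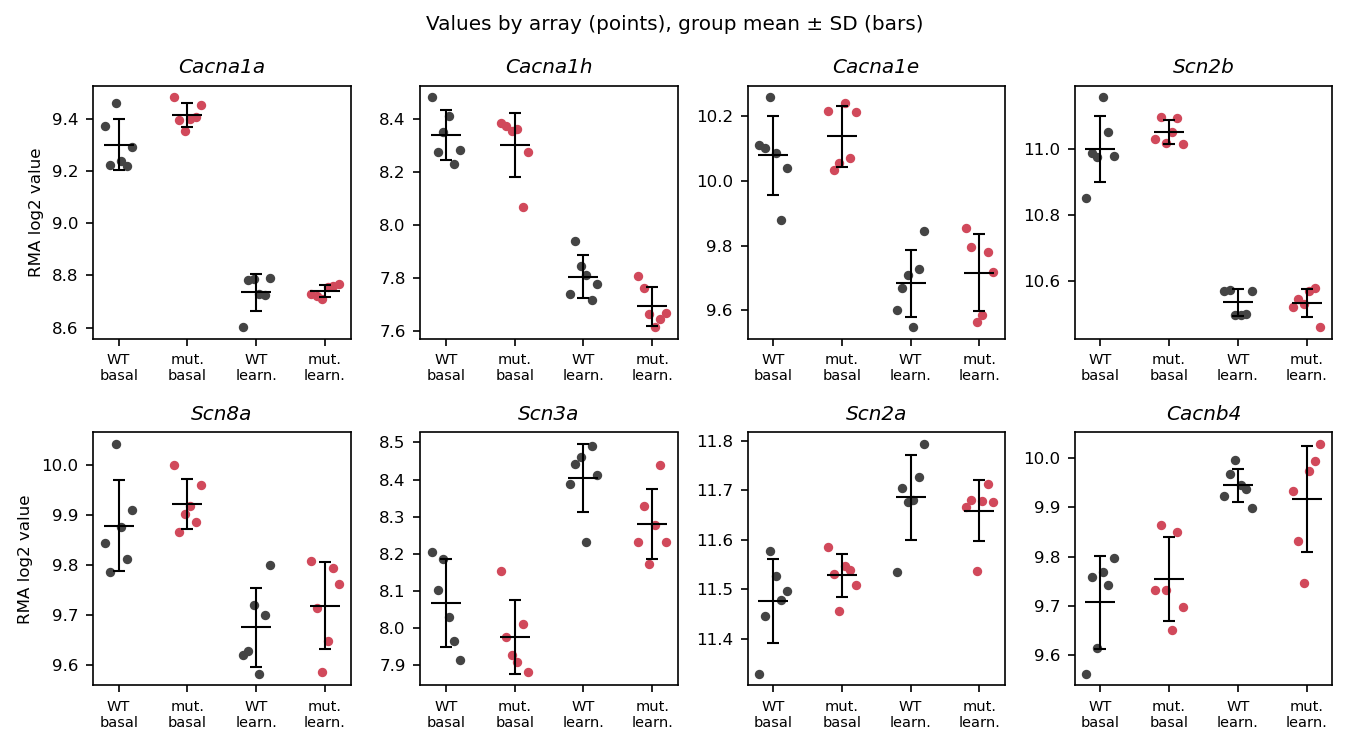
Log2 levels of 8 channel genes by array (points), with group means and SD (bars, 6 arrays a group); each panel has its own axis. Basal and learning arrays separate fully for Cacna1a, Cacna1h, Cacna1e and Scn2b, and Scn3a lies higher after learning in both genotypes.

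As a list, the 28 genes had a median learning difference of −0.044 in WT and −0.053 in the mutant, beside 0.030 and 0.031 over all genes. In WT 14.3% of them were called higher and 42.9% lower, and in the mutant 17.9% and 42.9%. With so many calls among all genes, a call by itself does not set a channel gene apart. Among the 6606 genes with a mean level above 8, a limit chosen after the data were seen, 39.4% were higher and 30.1% lower in WT. The 15 channel genes above it had 26.7% higher and 53.3% lower, and in the mutant the same shares beside 36.1% and 32.1%.

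**Figure D4:**
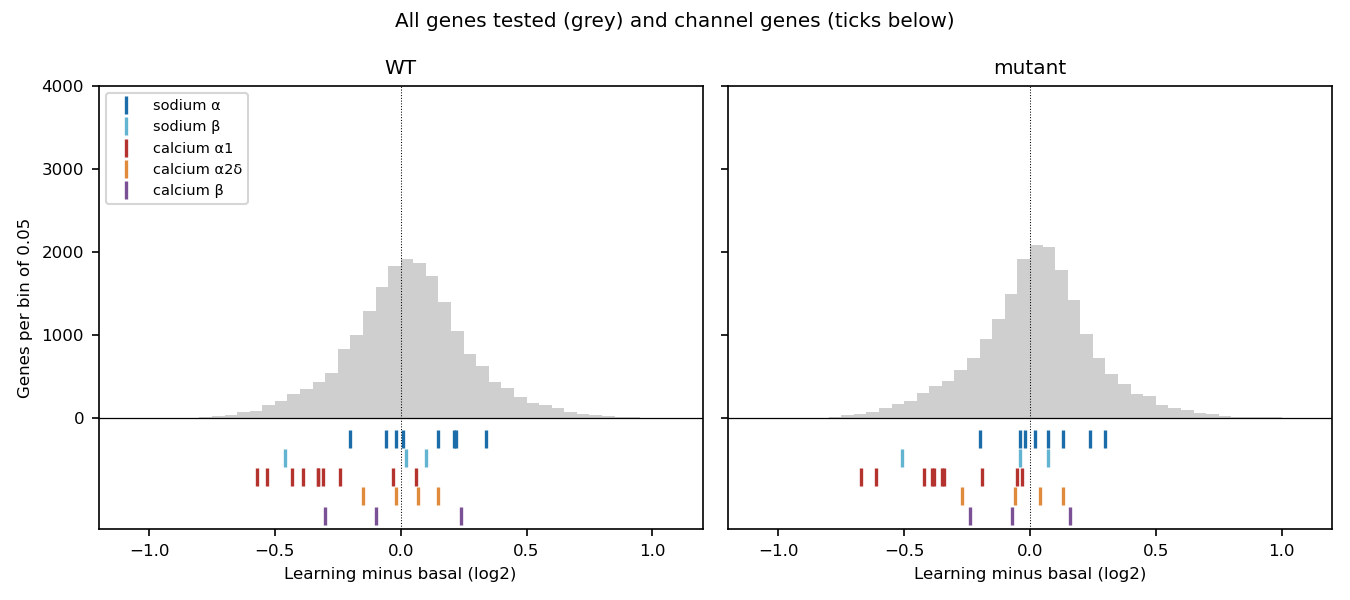
Grey bars count the genes tested by their learning minus basal difference (log2, bins of 0.05) in WT (left) and mutant (right). The axis runs from −1.2 to 1.2, and the few genes of the 19938 beyond it are not shown. Ticks below mark the channel genes by family. The alpha1 ticks lie mainly on the lower side, and the sodium alpha ticks centre near 0.

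The learning groups also differed from the basal groups in handling before the task, an earlier visit to the empty arena and acclimatization. Single housing is stated for the basal mice only. The task and these conditions cannot be told apart. Nor can a processing batch, since the labels give none. The neuron markers did not move as 1: Rbfox3 fell (−0.39 in WT and −0.37 in the mutant), Snap25 rose (0.20 and 0.17) and Syt1 differed by 0.00 and −0.05. The marker calls that follow stand beside 25.1% of all genes called higher and 18.2% lower in WT, and 22.6% and 18.7% in the mutant. Among genes with a mean level above 8 these shares were 39.4% and 30.1% in WT, and 36.1% and 32.1% in the mutant. Counts in lists this short do not show a shift of a cell type. Endothelial markers read lower in 3 of 3 (2 called in WT, 3 in the mutant), with mean log2 levels of 8.21 to 8.47 in basal and 7.83 to 8.14 in learning arrays. CA1 markers read lower in 3 of 3 (2 called in each genotype), at 9.17 to 9.36 against 8.93 to 9.12. Of 4 astrocyte markers 3 were called lower in both, at 9.67 to 9.88 against 9.51 to 9.79. Other lists were mixed. Microglia markers read lower in 3 of 4 (1 called higher and 1 lower in each genotype). Mural cell markers read lower in 2 of 3 (1 called higher and 1 lower in each genotype). Of 3 thalamus markers 2 were called lower and 1 higher in each genotype. Interneuron markers read higher in 5 of 7 in both genotypes (4 called higher and 2 lower in WT, 3 and 2 in the mutant). Oligodendrocyte markers read higher in 3 of 4 (1 called higher and 1 lower in WT, 2 and 1 in the mutant). Of 3 neocortical markers 2 were called higher and 1 lower in WT, and 0 and 1 in the mutant. Choroid plexus markers read lower after learning in 8 of 8 in both genotypes (1 called in WT, 3 in the mutant). Their mean log2 level ran from 6.21 to 7.28 in WT basal, 6.79 to 7.28 in mutant basal, 6.32 to 6.58 in WT learning and 6.23 to 7.22 in mutant learning arrays. Among them Ttr, which encodes transthyretin, split the WT basal arrays, with 11.65 to 12.11 in arrays 1, 2 and 3 and 8.80 to 9.64 in arrays 4, 5 and 6. With only the former kept, 16 channel genes were called in WT, 15 of them the same and Cacna2d2 no longer (−0.06, adjusted p = 0.446). With only the latter kept, the same 16 were called.

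Genotype comparisons asked whether loss of FoxO6 went with other channel levels in either state. As given above, 0 of 28 were called in each of the 3 genotype comparisons. At an unadjusted p under 0.05 there were 3 at basal, 2 after learning and 3 on average, of 28, where all genes gave 4.5%, 7.33% and 8.86%. In both states the WT and mutant arrays overlapped for each of the 28, while over all genes they lay apart at basal in 0.246% with the mutant higher and 0.186% with it lower, and after learning in 0.191% and 0.181%.

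The largest genotype difference at basal was in Cacna2d2, at 7.66, 7.76 and 7.79 in the mutant against 7.44, 7.55 and 7.79 in WT. The mutant arrays overlapped the upper part of the WT range (0.16, 95% interval 0.05 to 0.27, adjusted p = 0.794). Cacna1a and Cacna1i each differed by 0.11 at basal (intervals 0.03 to 0.20 and 0.01 to 0.20, adjusted p = 0.942 and 1). After learning the Scn9a difference was 0.19 (0.02 to 0.35, adjusted p = 0.616) and the Scn3a difference −0.12 (−0.24 to 0.00, adjusted p = 0.669). Scn3a was also on the lower side on average (−0.11, −0.19 to −0.02, adjusted p = 0.423). The 95% intervals of all 28 genes lay within −0.24 and 0.36 at basal and within −0.44 and 0.35 after learning. At basal 20 of 28 differences were above 0, beside 11485 of 19938 over all genes. The median of the 28 was 0.044, beside 0.011 over all genes.

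**Figure D5:**
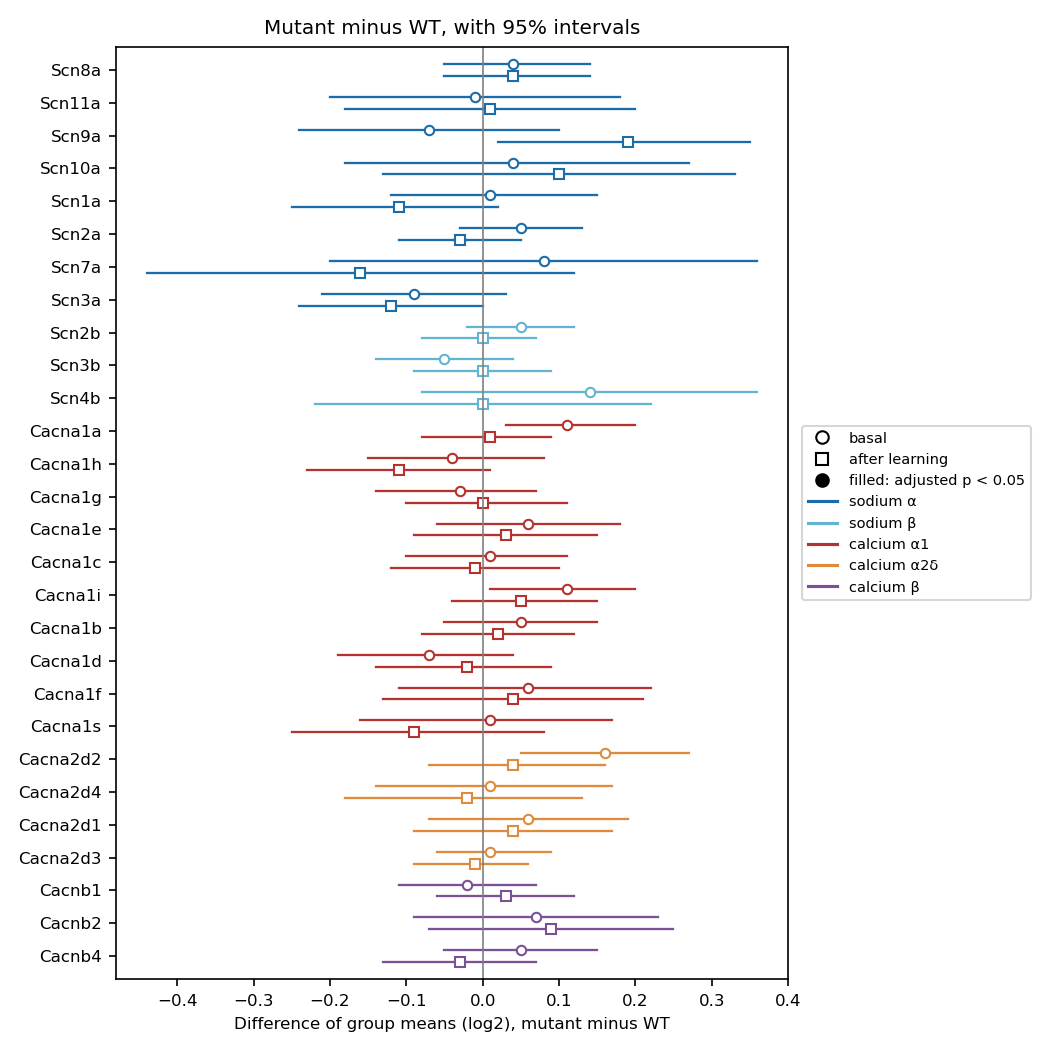
Points are mutant minus WT differences of group means in log2 units at basal (circles) and after learning (squares), and bars are 95% intervals. All symbols are open, since 0 of 28 genes were called in either state.

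Cell type markers differed beside these genotype values. At basal the dentate granule cell markers read lower in the mutant in 6 of 6 (1 called, beside 0.0552% of all genes called lower). Their mean log2 level was 8.09 to 8.31 against 8.27 to 8.63. Interneuron markers read higher in 6 of 7 (0 called), at 9.28 to 9.42 against 9.15 to 9.39, and choroid plexus markers in 8 of 8 (0 called). Neocortical markers read higher in 3 of 3 (0 called), at 8.26 to 8.41 against 8.09 to 8.33. Of 3 CA1 markers, Fibcd1 fell in the mutant in both states with no overlap (−0.34, adjusted p = 0.00563, and −0.35, adjusted p = 0.00226). The other 2 read higher in the mutant in both states and were not called. Their basal means were 9.25 in mutant against 9.09 in WT for Wfs1, and 9.74 against 9.59 for Man1a. The CA1 list read 9.19 to 9.36 in mutant and 9.17 to 9.35 in WT basal arrays. After learning the dentate markers were again lower in 6 of 6 and the choroid plexus markers higher in 8 of 8 (0 called in each list). On average over both states 3 of 6 dentate markers were called lower, beside 0.216% of all genes. CA3 and CA2 markers read higher in the mutant in 4 of 5 at basal and 5 of 5 after learning (0 called in each state). The part of these markers in the genotype and learning values was not tested.

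Whether the change after learning depended on FoxO6 was asked by the interaction, which subtracts the basal genotype difference from the one seen after learning. It was called for 0 of 28 channel genes and for 0 of all genes by limma (0% of all genes), with 510 genes (2.56%) at an unadjusted p under 0.05. The differences ran from −0.24 in Scn7a to 0.26 in Scn9a. Scn9a was the 1 channel gene below that unadjusted limit (95% interval 0.02 to 0.49, adjusted p = 1), and its second probe gave −0.13. For Cacna1a the interaction was −0.11 (−0.23 to 0.01), for Scn2b −0.05 (−0.16 to 0.05) and for Scn8a 0.00 (−0.13 to 0.13). The alpha1 genes that fell had interaction intervals within −0.24 and 0.21.

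Proteins that bind or regulate these channels were followed in lists, 47 of 51 of them measured. In WT 9 rose, 24 fell and 14 were not called, and in the mutant 7 rose, 25 fell and 15 were not called. That is 19.1% higher and 51.1% lower in WT, beside 25.1% and 18.2% of all genes. In the mutant it is 14.9% and 53.2%, beside 22.6% and 18.7%. Most partners had a mean level above 8. Among all genes above 8, 39.4% were higher and 30.1% lower in WT, and 36.1% and 32.1% in the mutant. Between genotypes 0 of 47 were called in any comparison.

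RGK proteins are small GTPases that bind beta subunits and inhibit calcium channels. Of the 3 measured, Gem rose in both genotypes. It read 5.68, 5.90 and 6.06 in WT basal and 6.28, 6.45 and 6.62 in WT learning arrays, with no overlap, and 5.82, 5.98 and 6.23 against 6.01, 6.61 and 6.81 in the mutant, with overlap. The differences were 0.55 (adjusted p = 3.31e-05) and 0.53 (adjusted p = 5.12e-05). Rem2 differed by 0.08 and 0.03 and Rrad by −0.06 and 0.10.

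FGF homologous factors bind the intracellular tail of sodium channels and set their inactivation. All 4 were called, in opposite directions by gene (50% higher and 50% lower in each genotype, beside the shares of all genes above). Fgf12 rose by 0.50 in both genotypes and Fgf14 by 0.31 in WT and 0.27 in the mutant. Fgf11 differed by −0.46 and −0.37 and Fgf13 by −0.26 and −0.27.

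Of 5 scaffold genes of the axon initial segment, where sodium channels cluster, 3 fell in each genotype. That is 60%, beside 18.2% and 18.7% of all genes and 30.1% and 32.1% of genes above 8 in WT and mutant. Ank3, which encodes ankyrin-G, differed by −0.26 and −0.27, Sptbn4, which encodes beta-IV spectrin, by −0.53 and −0.54, and Nfasc, which encodes neurofascin, by −0.56 and −0.65. These moved in the direction of Scn8a and Scn2b and opposite to Scn2a and Scn3a.

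The gamma subunit family holds calcium channel gamma subunits and the TARPs, which carry AMPA receptors. Cacng8 differed by −0.76 in WT (adjusted p = 7.97e-15) and −0.81 in the mutant (adjusted p = 1.69e-15). Its levels were 10.48 to 10.64 in WT basal and 9.66 to 9.95 in WT learning arrays, and 10.47 to 10.61 against 9.68 to 9.84 in the mutant, far apart in both. Cacng7 differed by −0.74 and −0.81 and Cacng3 by −0.46 and −0.49. Cacng4 fell (−0.23) and Cacng2 rose (0.15) in WT, with −0.10 and 0.04 in the mutant, not called. In the sodium leak channel complex the pore Nalcn rose in WT (0.17) and differed by 0.10 in the mutant, not called, while its partners Unc79 (−0.20 and −0.21), Unc80 (−0.24 in both) and Fam155a (−0.16 and −0.21) fell. Stac2, an adaptor of L-type channels, differed by −0.51 and −0.57.

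Active zone proteins hold calcium channels beside docked vesicles. Of 8, Bsn (−0.56 and −0.65), Rimbp2 (−0.43 and −0.42), Unc13a (−0.36 and −0.35) and Rims1 (−0.12 in both) fell in both genotypes. Rims2 rose in WT (0.16) and differed by 0.02 in the mutant, not called. Erc1 (−0.17) and Pclo (−0.22) fell in the mutant and differed by −0.06 and −0.02 in WT, not called. Of the 8, 12.5% were higher and 50% lower in WT, beside 39.4% and 30.1% of all genes above 8. In the mutant the shares were 0% and 75%, beside 36.1% and 32.1%.

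Calcium sensors and effectors, which act after calcium entry, were called in 10 of 13 in WT and 11 of 13 in the mutant. Over all genes 43.3% and 41.3% were called. All 13 had a mean level above 8, where calls were more frequent. Of the 13, 23.1% were higher and 53.8% lower in WT, beside 39.4% and 30.1% of all genes above 8. In the mutant the shares were 30.8% and 53.8%, beside 36.1% and 32.1%. Lower in both genotypes were the calmodulin gene Calm3 (−0.35 and −0.26), the kinase genes Camk2a (−0.28 and −0.25), Camk2b (−0.18 and −0.12), Camk2g (−0.17 and −0.19) and Camkk2 (−0.30 and −0.38), and the calcineurin catalytic genes Ppp3ca (−0.09 in both) and Ppp3cb (−0.30 and −0.31). Higher in both were Calm2 (0.22 and 0.21), Camk4 (0.25 and 0.20) and the calcineurin regulatory gene Ppp3r1 (0.20 and 0.24). Rcan1, a calcineurin regulator, rose in the mutant (0.14) and differed by 0.09 in WT, not called. A gene called in 1 genotype is not shown to differ between them, since the interaction was called for 0 of the 47.

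Of the 28 channel genes, 0 lie on the chromosome of Foxo6. Neighbours did not share a direction throughout. Scn3a and Scn2a are adjacent and both rose, and Scn1a, Scn9a and Scn7a follow in the same cluster without a call in WT. Scn2b fell beside Scn4b, which was not called, and Cacna2d3 rose while Cacna1d, with 5 protein-coding genes between them, fell.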

How the data were processed

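RNA of 24 hippocampal samples was measured on Affymetrix Mouse Gene 1.0 ST arrays. Values in the deposited table are log2 and were made by the authors with RMA, per the submitters' processing notes. No version of RMA is named in the labels. RMA corrects background, equalises quantiles between arrays and summarises probes, which sets values relative to the other arrays and compresses small signals. The values were not transformed further, and 0 were missing. By the platform annotation, 21789 of 35511 probes carry 1 gene symbol, 1621 several and 12101 none. Only the first kind was used, with the highest-mean probe for the 999 genes that have several, which left 19938 genes and no filter on dim genes. In 3 probes a channel gene shares the annotation with another symbol, and these were left out.

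One linear model (limma 3.58.1 in R 4.3.3) fitted a mean to each of the 4 groups, with 20 residual degrees of freedom. Its eBayes step used a mean-variance trend, and 6 comparisons were drawn from it. P-values are two-sided, with Benjamini-Hochberg adjustment across the 19938 genes. Genes with an adjusted p under 0.05 are called, and "rose" and "fell" are used of them alone. SE and 95% intervals use the moderated spread. Every adjusted p comes from limma. The code was tested on simulated data. The precision is limited by 6 arrays a group.

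The channel genes and the partner and marker lists were chosen with earlier results of these data known, and no list was tested. All channel genes are accounted for, every called partner is named with its difference, and uncalled partners are counted. Other normalizations, array weights, a filter on dim genes, other probe rules, the samples in the model, the replicate number as a block and each array left out were tried.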

Additional observations from a re-analysis of the deposited data

Results flagged for a closer look

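In 4 of 112 groups of 6 arrays, 1 array of a channel gene stood far from the other 5 by Dixon's criterion, where chance marks about 1 in 20. WT learning array 1 read 8.60 for Cacna1a, below the other arrays at 8.73 to 8.79. Mutant basal array 5 read 8.07 for Cacna1h, with the others at 8.27 to 8.39. Mutant learning array 3 read 11.54 for Scn2a, with the others at 11.67 to 11.71, and mutant basal array 4 read 6.62 for Scn4b, with the others at 7.02 to 7.23. All 4 were low, and each came from a different array.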

How the results depend on the processing

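The count of called channel genes stayed at 0 for the genotype comparisons and the interaction under all alternatives run. For learning it was 16 to 17 in each genotype under the alternatives other than single arrays left out. A stable count did not always hold the same genes: Scn1a became called higher in WT with array weights, the filter on dim genes or only its 2 groups in the model, without WT basal arrays 4, 5 and 6, and without WT basal array 4, mutant basal array 2 or WT learning array 1 (differences 0.15 to 0.23, adjusted p 0.026 to 0.0499). Leaving out each array in turn gave 15 to 17 in WT and 16 to 17 in the mutant. With the replicate number as a block the counts were 16 and 17, and 0 elsewhere, so the replicate block changed no count. Deviations of same-numbered arrays correlated at −0.296 to 0.453, over 0.1 in 7 of 36 pairs. Arrays of different number were not compared, so these values cannot show whether the numbers pair the samples. Average and interaction use all groups and had no fit on fewer. Leaving out WT basal arrays by their Ttr level was chosen after the data were seen. The filter on dim genes left 20 of the 28. Beside the losses given above, Cacna2d2 in WT was not called with only its 2 groups in the model (adjusted p = 0.0582), nor Scn9a in the mutant after a second quantile normalization (adjusted p = 0.0728). The uncalled Scn9a difference in WT turned from −0.02 to 0.06 with the mean of its probes, to 0.03 without WT basal arrays 1, 2 and 3, and to 0.02, 0.00, 0.01 and 0.01 without WT basal array 1 or WT learning array 1, 3 or 4 (range over single arrays left out −0.05 to 0.02). The cause was not tested.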
